A study of Arabidopsis thaliana with 8 samples.

Results

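The WRKY transcription factors of Arabidopsis thaliana were followed in seedlings that carry mutations in parts of an imitation switch (ISWI) chromatin remodelling complex. A list of 51 WRKY loci was used, given as locus identifiers that span groups I, II and III of the family. All 51 were found in each deposited table, out of 23935 genes held by at least 1 table. The RefSeq annotation names 72 WRKY loci, so 21 lie outside the list, and 16 of those were in at least 1 table. The members were chosen by locus identifier, with no threshold on a value. The family itself was picked with its mutant-over-WT changes in these tables known, so counts over the list are a description and not independent evidence.

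Messenger RNA was sequenced from whole seedlings of the Col-0 ecotype at 10 days of age, grown on MS plates with 16 h of light. There were 2 libraries each of plants labelled arid5, chr11/17 and rlt1/2, and 2 libraries of wild type (WT). The labels give no allele for any mutant, no other genotype shared by the groups, and do not say whether the libraries of a group are separate cultures of plants; p-values therefore reflect the spread of these libraries alone, which may be technical. The title of the study names ARID5 as part of the ISWI complex. CHR11 and CHR17 are ISWI-type ATPases, which move nucleosomes, and RLT1 and RLT2 are their DDT-domain partners.

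WRKY proteins are a plant family of DNA-binding regulators. Their WRKY domain binds a short DNA element, the W box, which occurs in the promoters of many defence genes and of WRKY genes themselves. Members of group I carry a pair of WRKY domains, those of group II carry a single one and are divided into IIa to IIe, and those of group III carry a single one with a different zinc finger. The family is known for its roles in immunity against bacteria and fungi, in the antagonism of salicylic acid and jasmonate, in leaf senescence, in phosphate and boron nutrition, and in seed and trichome development. Many members are induced within minutes of wounding or contact with a microbe.

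Depth over the genes common to the tables was 23135817 to 29965298 recovered reads per library. The targeted genes were examined first. ARID5 (AT3G43240) had normalised values of 213 and 206 in arid5 against 831 and 845 in WT and was 4.0-fold lower. RLT2 (AT5G44180) had 87.8 and 60.6 in the libraries labelled rlt1/2 against 2292 and 2161 in WT, whereas RLT1 (AT1G28420) had 2318 and 1908 against 1955 and 1970 in WT and was not called. CHR17 (AT5G18620) had 771 and 833 in the libraries labelled chr11/17 against 1395 and 1316 in WT and was 1.69-fold lower, but CHR11 (AT3G06400) had 7226 and 7319 against 3077 and 2915 in WT and was 2.43-fold higher. The libraries labelled as their mutants thus showed more CHR11 transcript and no called change of RLT1, which goes against those labels at the transcript level. A total over the whole gene cannot tell which exons the reads came from, and every direction below for the libraries labelled chr11/17 and labelled rlt1/2 rests on those labels. Each mutant was set against WT in its own table with limma on log2(value + 10), a scale that understates the change of low genes. A gene was called at a Benjamini-Hochberg adjusted p under 0.05 over all tested genes of that table. Log2 changes are mutant over WT with their standard error (SE), folds are ratios of the 2-library means of the normalised values, and levels are RPKM, the recovered reads per kilobase of exon scaled by library size, with all 8 libraries on 1 scale.

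Most tested WRKY transcripts were higher in the libraries labelled chr11/17 than in WT, and fewer in the other mutants. In the libraries labelled chr11/17, 47 members passed the filter on low values, of which 34 rose, 7 fell and 6 were not called. Over all 20878 genes tested there, 71.8% were called, 35.9% higher and 36% lower, beside 72.3% and 14.9% of the tested members. The median log2 change of the tested members was 0.77, against -0.0075 for all tested genes. The count of falls rests on the WT libraries, since it was 4 without WT replicate 1 and 3 without WT replicate 2, when WRKY42 and WRKY54 no longer passed the filter. In the libraries labelled rlt1/2, 48 members were tested, of which 27 rose, 5 fell and 16 were not called, with 47.9% of all genes called, 23.8% higher and 24% lower. The members' median there was 0.45, against 0.0086 over all genes, and the count of falls was 3 when either WT replicate or replicate 1 of the libraries labelled rlt1/2 was left out. In arid5, 47 members were tested, of which 18 rose, 6 fell and 23 were not called, with 47.9% of all genes called, 23.3% higher and 24.6% lower. The median of the members in arid5 was 0.26, against 0.0031 over all genes.

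These splits depend on how the libraries are scaled. With equal library totals the median change of all genes moved to 0.25 in arid5, 0.15 in the libraries labelled chr11/17 and 0.27 in the libraries labelled rlt1/2. The members' calls were then 29 higher and 5 lower in arid5, 37 and 5 in the libraries labelled chr11/17, and 34 and 3 in the libraries labelled rlt1/2, while calls over all genes were 9767 higher and 2674 lower in arid5, 8867 higher and 6274 lower in the libraries labelled chr11/17, and 9681 higher and 2695 lower in the libraries labelled rlt1/2. On the deposited scale the corresponding all-gene calls were 4784 and 5062 in arid5, 7485 and 7507 in the libraries labelled chr11/17, and 4944 and 4982 in the libraries labelled rlt1/2.

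Large changes were most numerous in the libraries labelled chr11/17, where 20 members were called with a log2 rise past 1 and 5 with a log2 fall past 1, against 16.4% and 16.6% of all tested genes. In the libraries labelled rlt1/2 the counts past 1 were 6 and 1, against 6.21% and 3.81% of all genes, and in arid5 they were 3 and 2, against 4.31% and 2.98%. Across the mutants 44 of the 51 members were called in at least 1, or 91.7% of the 48 tested at least once, beside 80.3% of all genes tested at least once. A set of 15 rose in all 3, or 31.9% of the 47 members tested in every table, beside 15% of all such genes, namely WRKY6, WRKY11, WRKY17, WRKY18, WRKY21, WRKY26, WRKY29, WRKY39, WRKY45, WRKY47, WRKY48, WRKY57, WRKY60, WRKY65 and WRKY69. WRKY3 and WRKY61 fell in all 3 (4.26%, beside 18% of all genes), and WRKY2, WRKY8, WRKY23 and WRKY54 were called in opposite directions in different mutants (8.33% of the 48, beside 4.16% of all genes). The 3 comparisons share the WT libraries, so these counts are not independent of each other. WRKY41, WRKY55 and WRKY62 did not pass the filter in any table, and WRKY12 passed it in the rlt1/2 table only, through the mutant libraries. WRKY42 and WRKY54 passed it in the chr11/17 table only through the WT libraries.

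**Figure D1:**
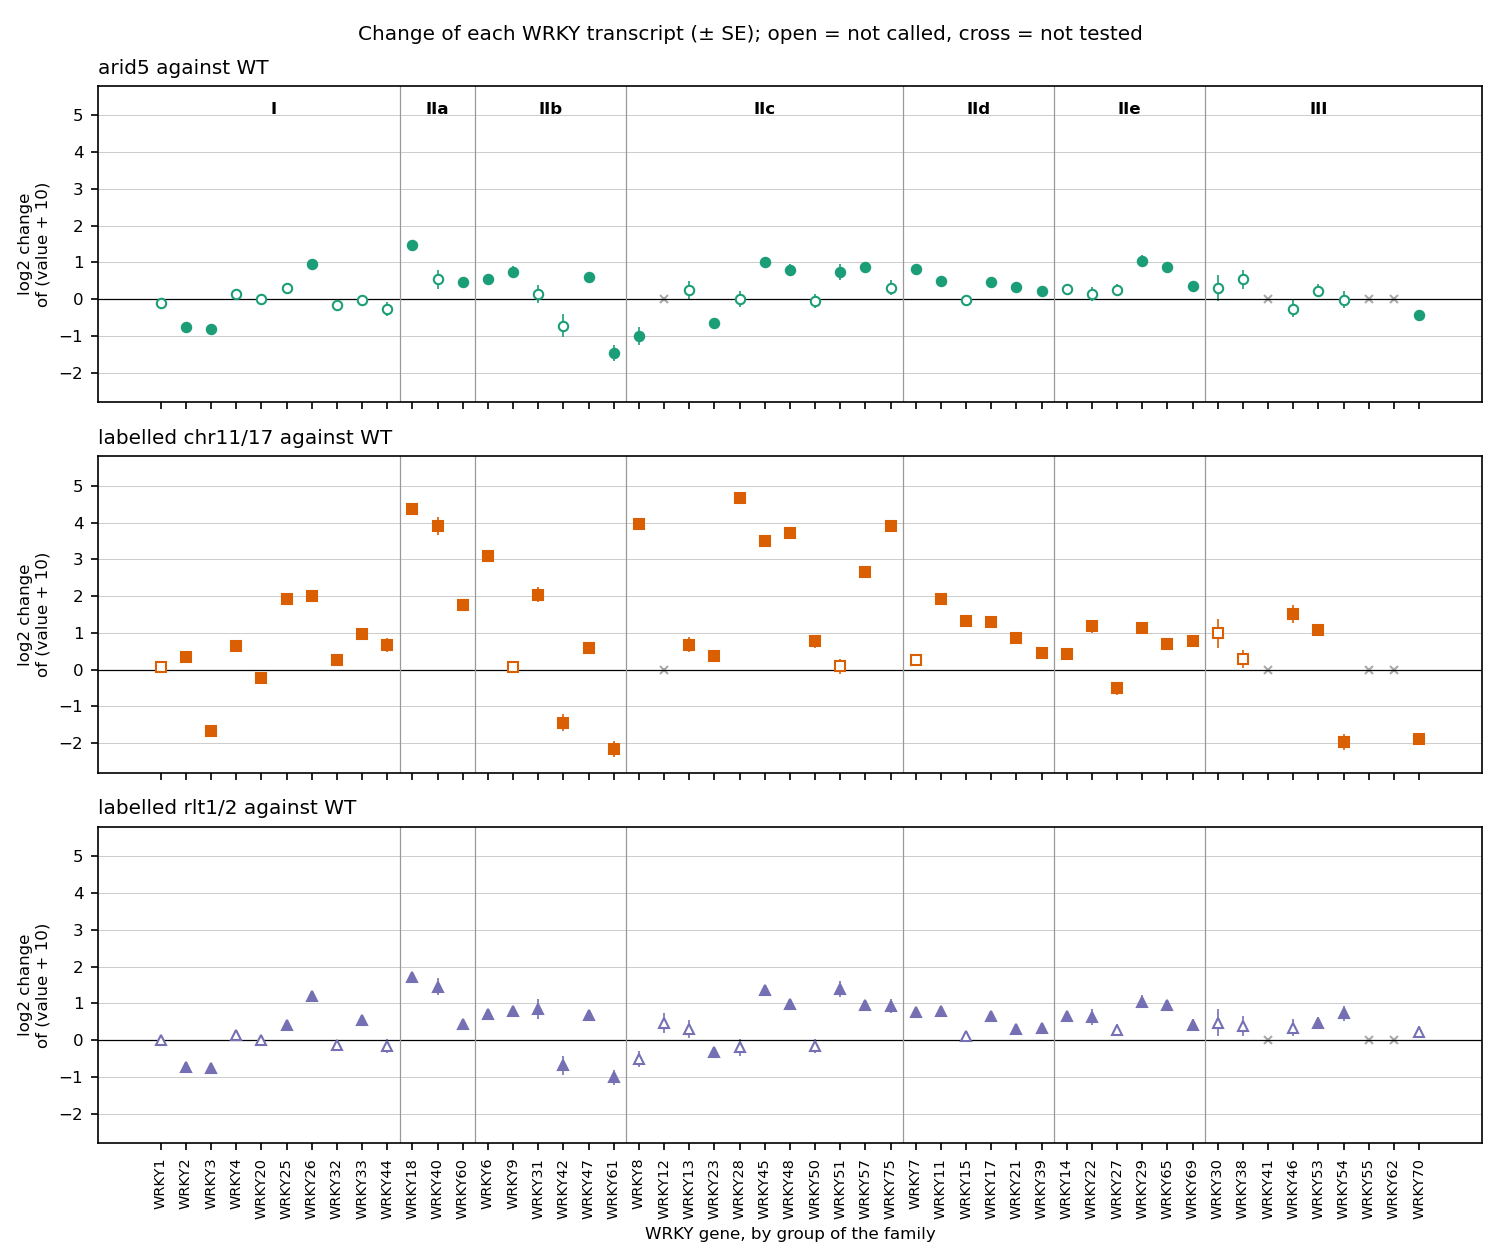
Log2 change of (value + 10) of each listed WRKY gene, mutant over WT, with its SE, in arid5 (top), the libraries labelled chr11/17 (middle) and those labelled rlt1/2 (bottom), with 2 libraries per group; columns are ordered by group of the family. Filled points were called, open points were not, and crosses mark genes that were not tested. The tallest points are in the middle panel, in groups IIa and IIc, where WRKY28 reaches 4.67.

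Levels of the listed genes in WT spanned from nearly silent to moderate. Per length, WRKY15 stood highest in WT with 21.7 and 25.3 RPKM, then WRKY1 with 20.6 and 20.5, then WRKY39 with 16.7 and 16.9. WRKY3 (16.1 and 15.5 RPKM), WRKY65 (14.3 and 16.7) and WRKY11 (16.0 and 14.4) overlapped each other, so their order in WT is not resolved. At the lower end, 10 of the 51 members averaged under 1 RPKM in WT, and WRKY41 and WRKY62 had 0 reads in 1 WT library.

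The order was different in the libraries labelled chr11/17. WRKY6 was highest with 70.0 and 62.9 RPKM, closely followed by WRKY45 with 70.2 and 60.0, WRKY11 with 65.3 and 54.8 and WRKY15 with 63.2 and 57.6, and the replicates of these 4 overlapped. WRKY57, WRKY18, WRKY75, WRKY28, WRKY40 and WRKY48 filled the next places, with means from 47.8 down to 31.1 RPKM. Of these 10, WRKY11 and WRKY15 were also among the 10 highest in WT. The median member stood at 9.0 RPKM in the libraries labelled chr11/17, against 4.58 in arid5, 5.37 in the libraries labelled rlt1/2 and 3.27 in WT. Summed over the 51 members, WRKY transcripts took 1573 and 1447 RPM (recovered reads scaled by library size, without division by length) in the libraries labelled chr11/17, 687 and 652 in arid5 and 723 and 772 in the libraries labelled rlt1/2, against 549 and 577 in WT. In bulk seedlings, a larger share of cells that express a gene and more transcript per cell cannot be told apart.

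**Figure D2:**
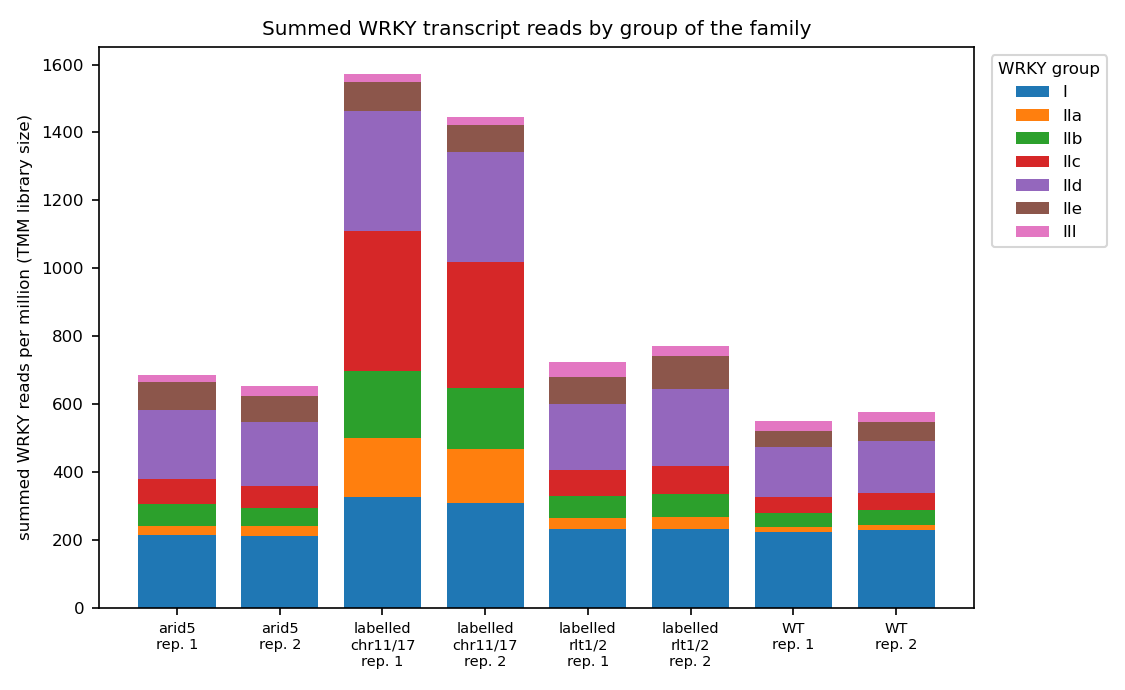
Summed RPM (y axis, recovered reads scaled by TMM library sizes) of the listed WRKY genes in each of the 8 libraries, stacked by group of the family. The bars of the libraries labelled chr11/17 reach 1573 and 1447, those of WT 549 and 577; groups IIa and IIc take up more of the bars in the libraries labelled chr11/17.

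The groups of the family are described first by their median log2 change. In arid5 the medians were -0.06 over the 10 genes of group I, 0.37 over the 31 tested of group II and 0.11 over the 6 tested of group III. For the libraries labelled chr11/17 they were 0.50, 1.14 and 0.64, and for those labelled rlt1/2 they were 0.0066, 0.66 and 0.43. Within group II of the libraries labelled chr11/17, the median was 3.92 in IIa and 3.09 in IIc, against 1.09 in IId, 0.74 in IIe and 0.32 in IIb. These medians cover the members that passed the filter and were not tested against each other.

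Group IIa holds 3 related genes, WRKY18, WRKY40 and WRKY60, whose proteins bind each other and act redundantly in restraining basal defence and abscisic acid responses. All 3 rose in the libraries labelled chr11/17 and in those labelled rlt1/2, and WRKY18 and WRKY60 rose in arid5. In that order, 35.9%, 23.8% and 23.3% of all genes were called higher. WRKY18 (AT4G31800, chromosome 4, 15382777 to 15385100 in TAIR10.1) had 6.14 and 5.67 RPKM in arid5, 49.7 and 42.5 in the libraries labelled chr11/17 and 6.70 and 7.40 in the libraries labelled rlt1/2, against 1.93 and 2.09 in WT. Every mutant library was above both WT libraries, and the libraries labelled chr11/17 stood far above the rest. Its log2 changes were 1.47 ± 0.14 in arid5, 4.36 ± 0.11 (22.6-fold) in the libraries labelled chr11/17 and 1.73 ± 0.14 in the libraries labelled rlt1/2, with limma adjusted p values of 4.96e-06, 6.58e-07 and 1.34e-06.

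WRKY40 (AT1G80840) had 2.49 and 3.06 RPKM in arid5, 31.4 and 33 in the libraries labelled chr11/17 and 5.17 and 5.73 in the libraries labelled rlt1/2, against 1.29 and 2.47 in WT. The WT libraries differ more for WRKY40 than for WRKY18, and arid5 comes close to the higher of them. WRKY40 was called in the libraries labelled chr11/17 (3.92 ± 0.24, 16.8-fold, limma adjusted p = 1.24e-05) and in the libraries labelled rlt1/2 (1.46 ± 0.23, 2.90-fold, limma adjusted p = 0.000219), and not in arid5 (0.54 ± 0.25, limma adjusted p = 0.096). WRKY60 (AT2G25000) rose 3.51-fold in the libraries labelled chr11/17, from a higher level in WT (5.43 and 5.37 RPKM) than its relatives. Its smaller rise in the libraries labelled rlt1/2 (0.43 ± 0.13, limma adjusted p = 0.0169) was lost without rlt1/2 replicate 2 (0.30). Group IIa together took 174 and 159 RPM in the libraries labelled chr11/17, against 14.2 and 16.0 in WT, a ratio of the means of 11.

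Group IIc holds 11 listed genes, of which 10 were tested in the libraries labelled chr11/17, where 9 rose and 1 was not called, with a median log2 change of 3.09. The rises were 90% of those tested, beside 35.9% of all genes. WRKY28 (AT4G18170, chromosome 4, 10061214 to 10062893), which in Arabidopsis activates salicylic acid synthesis genes, showed the largest fold rise of the listed members. It had 1.22 and 1.05 RPKM in arid5, 34.7 and 37.5 in the libraries labelled chr11/17 and 0.88 and 1.0 in the libraries labelled rlt1/2, against 1.0 and 1.25 in WT. Only the libraries labelled chr11/17 stood apart, by 31.7-fold (4.67 ± 0.14, limma adjusted p = 9.63e-07), while the changes in arid5 (0.01 ± 0.22) and in the libraries labelled rlt1/2 (-0.20 ± 0.22) were not called and their libraries overlapped with WT.

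WRKY75 (AT5G13080), known in phosphate starvation and as a promoter of leaf senescence, had 3.13 and 2.74 RPKM in arid5, 44.9 and 38.5 in the libraries labelled chr11/17 and 4.37 and 5.14 in the libraries labelled rlt1/2, against 2.22 and 2.29 in WT. It rose 18.2-fold in the libraries labelled chr11/17 (3.90 ± 0.14, limma adjusted p = 1.59e-06) and 2.11-fold in those labelled rlt1/2, and was not called in arid5. WRKY45 (AT3G01970), which activates a phosphate transporter gene, had 11.1 and 10.8 RPKM in arid5, 70.2 and 60.0 in the libraries labelled chr11/17 and 13.6 and 14.7 in the libraries labelled rlt1/2, against 5.81 and 4.86 in WT. All mutant libraries exceeded WT, and its rises of 2.06-fold in arid5, 12-fold in the libraries labelled chr11/17 and 2.67-fold in those labelled rlt1/2 were all called.

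WRKY48 (AT5G49520), a repressor of basal resistance to bacteria, had 4.40 and 3.37 RPKM in arid5, 33.1 and 29.1 in the libraries labelled chr11/17 and 4.32 and 4.39 in the libraries labelled rlt1/2, against 2.08 and 2.18 in WT, and rose in all 3, by 14.4-fold in the libraries labelled chr11/17. WRKY57 (AT1G69310), known in drought tolerance and in restraining jasmonate-induced senescence, rose 1.85-fold in arid5, 6.50-fold in the libraries labelled chr11/17 and 1.95-fold in those labelled rlt1/2. Of the remaining genes of the group, WRKY13 and WRKY50 were called higher in the libraries labelled chr11/17 and not called in the other mutants, the call of WRKY13 (0.67 ± 0.20) being lost without WT replicate 1 (0.56) or chr11/17 replicate 1 (0.59), while WRKY51 was called in arid5 (2.01-fold) and in the libraries labelled rlt1/2 (3.35-fold) and not in the libraries labelled chr11/17 (0.09 ± 0.20). WRKY12, which with WRKY13 is known in the timing of flowering, was between 0.210 and 0.761 RPKM in all libraries. The IIc sum was 412 and 370 RPM in the libraries labelled chr11/17, against 48.6 in both WT libraries.

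**Figure D3:**
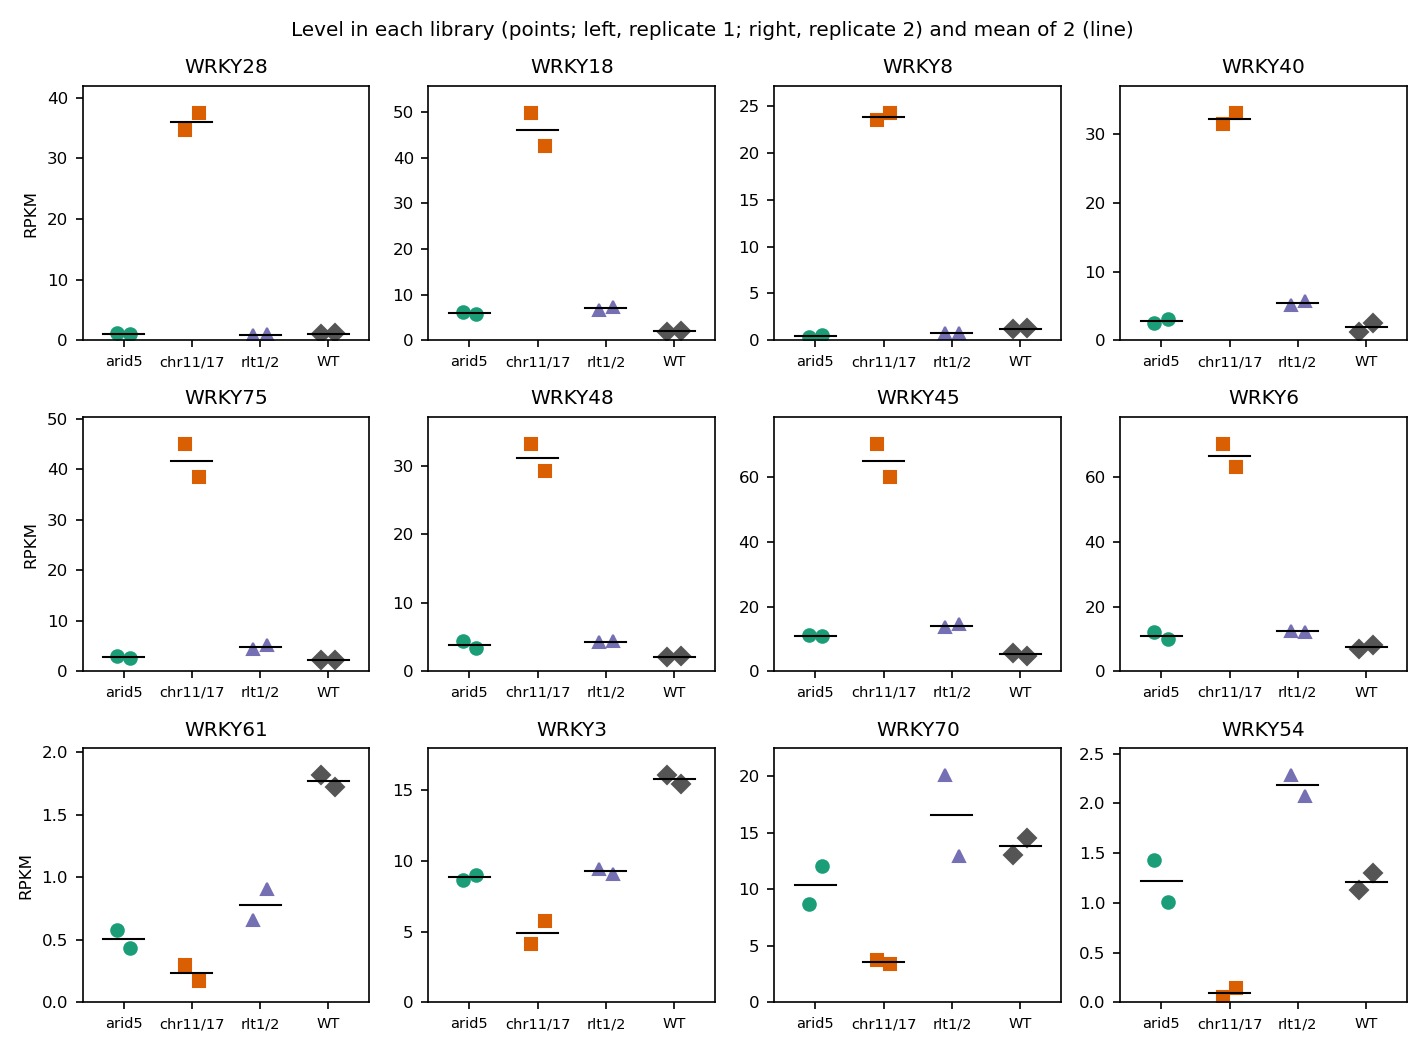
Level in RPKM of 12 WRKY genes in each library (points, replicate 1 left and replicate 2 right) with the mean of 2 libraries (line), for arid5, the libraries labelled chr11/17, those labelled rlt1/2 and WT; each panel has its own y axis from 0. In the upper 8 panels both libraries labelled chr11/17 are above all others, and in the lower 4 panels both are below all others.

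The 250 bases before the annotated start of the listed genes were read from the RefSeq TAIR10.1 genome, to show what stands upstream of genes that rose together. The W box was searched as TTGACC and TTGACT on both strands, so a match on the other strand reads GGTCAA or AGTCAA. It was found in 19 of 51 members (37.3%), against 7797 of 27443 protein-coding genes (28.4%), and at least 2 matches were found in 10 members (19.6%), against 6.18% of all. Among the 34 members that rose in the libraries labelled chr11/17, 12 held a match (35.3%, beside 37.3% of the list), as did 1 of the 7 that fell, WRKY20. So did 2 of the 6 not called and all 4 untested members. WRKY8, WRKY40 and WRKY48, also among the largest rises there, held none. A match is a description of the letters only. The promoters of WRKY28, WRKY75 and WRKY45 are shown because their genes rose 31.7-fold, 18.2-fold and 12-fold in the libraries labelled chr11/17 and hold a match, and that of WRKY18 because its gene rose 22.6-fold and holds none within this window; matches are in capitals, and all are written 5′ to 3′ in the direction of the gene.
WRKY28 (chr4:10060964-10061213, plus strand): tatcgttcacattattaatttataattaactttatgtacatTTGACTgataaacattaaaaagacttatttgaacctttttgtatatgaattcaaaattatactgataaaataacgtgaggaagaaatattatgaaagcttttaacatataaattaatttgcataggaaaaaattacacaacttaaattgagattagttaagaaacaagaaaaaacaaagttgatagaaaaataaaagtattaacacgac
WRKY75 (chr5:4151202-4151451, minus strand): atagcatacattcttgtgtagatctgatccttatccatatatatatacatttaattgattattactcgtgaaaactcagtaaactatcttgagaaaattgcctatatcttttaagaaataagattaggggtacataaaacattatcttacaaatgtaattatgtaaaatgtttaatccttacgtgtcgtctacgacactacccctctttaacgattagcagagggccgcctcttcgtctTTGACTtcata
WRKY45 (chr3:327413-327662, minus strand): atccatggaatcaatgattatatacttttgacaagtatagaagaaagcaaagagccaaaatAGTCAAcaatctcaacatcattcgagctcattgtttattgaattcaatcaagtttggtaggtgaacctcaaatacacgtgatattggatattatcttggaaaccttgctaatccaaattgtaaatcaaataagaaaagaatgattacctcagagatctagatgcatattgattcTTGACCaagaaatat
WRKY18 (chr4:15382527-15382776, plus strand): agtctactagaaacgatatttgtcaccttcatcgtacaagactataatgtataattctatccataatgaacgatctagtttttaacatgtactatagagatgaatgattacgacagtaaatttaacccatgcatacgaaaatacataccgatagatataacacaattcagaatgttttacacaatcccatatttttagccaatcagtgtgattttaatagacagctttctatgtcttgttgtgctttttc

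Group IIb contained both large rises and large falls. WRKY6 (AT1G62300), known in senescence, in pathogen responses and as a repressor of the phosphate exporter gene PHO1, had 12 and 9.95 RPKM in arid5, 70.0 and 62.9 in the libraries labelled chr11/17 and 12.5 and 12.3 in the libraries labelled rlt1/2, against 6.92 and 8.00 in WT. It rose in all 3 mutants, by 1.47-fold in arid5, 8.76-fold in the libraries labelled chr11/17 and 1.66-fold in those labelled rlt1/2. WRKY31 rose 6.36-fold in the libraries labelled chr11/17 from a low level, and 2.36-fold in those labelled rlt1/2, where the call was lost without WT replicate 2 (0.81) or rlt1/2 replicate 2 (0.54). WRKY47 rose by a similar amount in each mutant, between 1.51-fold and 1.62-fold. WRKY9 rose in arid5 (1.75-fold) and in the libraries labelled rlt1/2 (1.79-fold) and was not called in the libraries labelled chr11/17 (0.07 ± 0.16).

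WRKY61 (AT1G18860), by contrast, had 0.577 and 0.434 RPKM in arid5, 0.302 and 0.170 in the libraries labelled chr11/17 and 0.657 and 0.902 in the libraries labelled rlt1/2, against 1.81 and 1.72 in WT. All 6 mutant libraries lay below both WT libraries, and its log2 changes were -1.46 ± 0.21, -2.15 ± 0.22 and -1.01 ± 0.21 in arid5 and in the libraries labelled chr11/17 and rlt1/2, with limma adjusted p values of 0.000142, 0.000114 and 0.0017. WRKY42 (AT4G04450), which like WRKY6 represses PHO1, was read 1 and 3 times in the libraries labelled chr11/17, with normalised values of 0.937 and 2.88 against 26.2 and 18.8 in WT. It was called lower there (limma adjusted p = 0.0012), but passed the filter only through the WT libraries, which had to be high, so that p is a description. It was also called lower in the libraries labelled rlt1/2 (-0.68 ± 0.26, limma adjusted p = 0.0475). That call was lost without any 1 of the 4 libraries, with the change between -0.85 and -0.52.

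Most calls in groups IId and IIe were rises. Of the 6 IId genes, whose proteins carry a calmodulin-binding region, 5 rose in each mutant, but not the same 5, since WRKY15 was not called in arid5 or in the libraries labelled rlt1/2 and WRKY7 was not called in the libraries labelled chr11/17. The rises were 83.3% of the group, beside 23.3% of all genes in arid5, 35.9% in the libraries labelled chr11/17 and 23.8% in those labelled rlt1/2. WRKY11 and WRKY17, close relatives that restrain basal resistance, both rose in all 3 mutants. WRKY11 (AT4G31550) had 23.0 and 20.3 RPKM in arid5, 65.3 and 54.8 in the libraries labelled chr11/17 and 24.4 and 28.6 in the libraries labelled rlt1/2, against 16.0 and 14.4 in WT. WRKY17 (AT2G24570) had 14.8 and 13.6 RPKM in arid5, 25.8 and 26.1 in the libraries labelled chr11/17 and 14.8 and 17.5 in the libraries labelled rlt1/2, against 9.16 and 11.2 in WT. For both genes the libraries labelled chr11/17 were highest, with rises of 3.88-fold and 2.50-fold. WRKY15 (AT2G23320), known in oxidative and salt stress, rose 2.52-fold in the libraries labelled chr11/17, and WRKY7 rose 1.77-fold in arid5 and 1.73-fold in the libraries labelled rlt1/2. WRKY21 and WRKY39 rose in all 3, by no more than 1.85-fold, but the call of WRKY39 in arid5 (0.23 ± 0.07, limma adjusted p = 0.0176) was lost without WT replicate 1, WT replicate 2 or arid5 replicate 1, with the change between 0.17 and 0.24 over these, and that of WRKY21 in the libraries labelled rlt1/2 (0.31 ± 0.09) without WT replicate 2 or rlt1/2 replicate 2.

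Of the 6 IIe genes, 3 rose in arid5, 5 in the libraries labelled chr11/17 and 5 in those labelled rlt1/2. In that order these were 50%, 83.3% and 83.3%, beside 23.3%, 35.9% and 23.8% of all genes. WRKY22 and WRKY29 are known to act below the flagellin receptor. WRKY22 rose 2.37-fold in the libraries labelled chr11/17 and 1.63-fold in those labelled rlt1/2, where the call was lost without WT replicate 1 (0.43) or rlt1/2 replicate 2 (0.30). WRKY29 (AT4G23550) had 4.91 and 4.39 RPKM in arid5, 5.01 and 5.10 in the libraries labelled chr11/17 and 3.98 and 5.25 in the libraries labelled rlt1/2, against 1.98 and 2.2 in WT, a rise between 2.21-fold and 2.38-fold in each mutant. WRKY65 (AT1G29280) likewise rose by 1.85-fold, 1.64-fold and 1.96-fold in arid5 and in the libraries labelled chr11/17 and rlt1/2. WRKY14 rose 1.37-fold in the libraries labelled chr11/17, a call lost without WT replicate 1 (0.36) or chr11/17 replicate 1 (0.34), and 1.62-fold in those labelled rlt1/2. WRKY69 was called higher in all 3 with limma adjusted p values of 0.0417, 0.00189 and 0.04, of which the call in arid5 was lost without WT replicate 1 or either arid5 replicate, and the call in the libraries labelled rlt1/2 without WT replicate 1 or rlt1/2 replicate 2. WRKY27, known in bacterial wilt, was called lower in the libraries labelled chr11/17 (-0.51 ± 0.18, limma adjusted p = 0.0398), which was not called without WT replicate 2 (-0.35) and without chr11/17 replicate 2 (-0.40).

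Group I was mixed. Of its 10 genes, 1 rose and 2 fell in arid5 (10% and 20%, beside 23.3% and 24.6% of all genes). There were 7 rises and 2 falls in the libraries labelled chr11/17 (70% and 20%, beside 35.9% and 36%). In those labelled rlt1/2, 3 rose and 2 fell (30% and 20%, beside 23.8% and 24%). The group took 325 and 309 RPM in the libraries labelled chr11/17, 213 and 212 in arid5 and 232 and 231 in the libraries labelled rlt1/2, against 223 and 229 in WT, a ratio of the means of 1.40 for the libraries labelled chr11/17. WRKY26 (AT5G07100) and WRKY25 (AT2G30250), which with WRKY33 are known in heat tolerance, rose 4.11-fold and 3.85-fold in the libraries labelled chr11/17. WRKY26 had 13.3 and 14.3 RPKM in arid5, 29.7 and 28.0 in the libraries labelled chr11/17 and 16.2 and 16.3 in the libraries labelled rlt1/2, against 6.62 and 7.20 in WT, so that no mutant library overlapped with WT. WRKY33 (AT2G38470), the regulator of camalexin synthesis and of resistance to Botrytis, had 9.73 and 9.81 RPKM in arid5, 20.7 and 19.6 in the libraries labelled chr11/17 and 14.9 and 14.4 in the libraries labelled rlt1/2, against 8.54 and 11.6 in WT. It rose 1.96-fold in the libraries labelled chr11/17 and 1.46-fold in those labelled rlt1/2, whereas both arid5 libraries lay between the WT libraries (-0.03 ± 0.12).

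WRKY3 (AT2G03340), which together with its relative WRKY4 supports resistance to necrotrophic fungi, was among the higher members in WT and fell in every mutant. It had 8.69 and 9.0 RPKM in arid5, 4.11 and 5.76 in the libraries labelled chr11/17 and 9.45 and 9.09 in the libraries labelled rlt1/2, against 16.1 and 15.5 in WT. No mutant library overlapped with WT, and the falls were 1.78-fold, 3.25-fold and 1.70-fold, with limma adjusted p values of 5.1e-06, 7.51e-05 and 1.72e-05. WRKY4 (AT1G13960) rose 1.58-fold in the libraries labelled chr11/17 and was not called in the other mutants. WRKY44, a regulator of trichomes and seed coat, rose 1.67-fold there, and WRKY32 1.21-fold, both calls lost without WT replicate 2, WRKY44 also without chr11/17 replicate 1 and WRKY32 also without WT replicate 1 or chr11/17 replicate 2. WRKY1 and WRKY20, both among the highest members by normalised value, were close to WT, with WRKY1 called in none of the mutants and WRKY20 called lower in the libraries labelled chr11/17 by 1.16-fold (limma adjusted p = 0.0272), which was not called without WT replicate 1 (limma adjusted p = 0.178) or WT replicate 2 (limma adjusted p = 0.103).

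Group III, which includes regulators of salicylic acid signalling and of senescence, was mostly low, and 6 of its 9 genes were tested in each table. In arid5 1 fell (16.7% of those tested, beside 24.6% of all genes) and 5 were not called. In the libraries labelled chr11/17 2 rose and 2 fell (33.3% and 33.3%, beside 35.9% and 36%). In the libraries labelled rlt1/2 2 rose (33.3%, beside 23.8%) and 4 were not called. WRKY70 (AT3G56400, chromosome 3, 20908711 to 20910623) and WRKY54 (AT2G40750), close relatives that restrain leaf senescence and salicylic acid synthesis, both fell in the libraries labelled chr11/17. WRKY70 had 8.66 and 12.1 RPKM in arid5, 3.76 and 3.42 in the libraries labelled chr11/17 and 20.1 and 13 in the libraries labelled rlt1/2, against 13.1 and 14.5 in WT. It was 3.91-fold lower in the libraries labelled chr11/17 (limma adjusted p = 1.57e-05), overlapped with WT in the libraries labelled rlt1/2, and in arid5 fell by 0.42 ± 0.14 (limma adjusted p = 0.0259), which was not called without WT replicate 2 (-0.34) or arid5 replicate 1 (-0.18).

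WRKY54 had 1.43 and 1.0 RPKM in arid5, 0.0567 and 0.140 in the libraries labelled chr11/17 and 2.28 and 2.08 in the libraries labelled rlt1/2, against 1.13 and 1.30 in WT. It fell in the libraries labelled chr11/17 (-1.96 ± 0.22, limma adjusted p = 0.000191), where it passed the filter only through the WT libraries, so that p is a description. It rose 1.80-fold in the libraries labelled rlt1/2 (0.73 ± 0.20, limma adjusted p = 0.00861), a rise that DESeq2 did not call (0.84, DESeq2 adjusted p = 0.0684). WRKY46 and WRKY53, which promote defence and, in the case of WRKY53, senescence, went the other way in the libraries labelled chr11/17, with rises of 3.09-fold and 2.26-fold. WRKY53 was also called in the libraries labelled rlt1/2 (0.47 ± 0.17, limma adjusted p = 0.0356), but that call was lost without any 1 of the 4 libraries, with the change between 0.41 and 0.53. WRKY30 had normalised values of 30.5 and 44.0 in the libraries labelled chr11/17 against 26.1 and 5.36 in WT, so the WT libraries themselves lie far apart, and WRKY30 and WRKY38 were not called anywhere.

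The other members called in opposite directions were WRKY8, WRKY2 and WRKY23. WRKY8 (AT5G46350, group IIc, chromosome 5, 18801164 to 18804056), known in salt stress and in defence against viruses, had 0.351 and 0.596 RPKM in arid5, 23.5 and 24.2 in the libraries labelled chr11/17 and 0.776 and 0.773 in the libraries labelled rlt1/2, against 1.18 and 1.29 in WT. Both libraries labelled chr11/17 were far above WT (19.0-fold, 3.95 ± 0.13, limma adjusted p = 1.32e-06) and all libraries of the other mutants were below it. The fall in arid5 was 2.60-fold (-1.0 ± 0.25, limma adjusted p = 0.0055), a call lost without arid5 replicate 1 (-0.77, limma adjusted p = 0.0529), and in the libraries labelled rlt1/2 the change was not called (-0.52 ± 0.22, limma adjusted p = 0.0689).

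WRKY2 (AT5G56270), known in the polarity of the zygote and in seed germination, had 4.55 and 3.69 RPKM in arid5, 9.71 and 8.63 in the libraries labelled chr11/17 and 4.5 and 3.90 in the libraries labelled rlt1/2, against 7.31 and 6.71 in WT. It fell 1.70-fold in arid5 and 1.66-fold in the libraries labelled rlt1/2 and rose 1.29-fold in the libraries labelled chr11/17, the last with a limma adjusted p of 0.0126 and lost without WT replicate 2 (0.30, limma adjusted p = 0.0881). WRKY23 (AT2G47260), an auxin-responsive gene of root development, had 4.47 and 3.72 RPKM in arid5, 8.57 and 8.69 in the libraries labelled chr11/17 and 4.78 and 5.39 in the libraries labelled rlt1/2, against 6.73 and 6.19 in WT. Its calls were lower in arid5 (1.58-fold) and in the libraries labelled rlt1/2 (1.27-fold), and higher in the libraries labelled chr11/17 (1.31-fold). The call of WRKY23 in the libraries labelled rlt1/2 was lost without WT replicate 1, WT replicate 2 or rlt1/2 replicate 1, and that in the libraries labelled chr11/17 without WT replicate 2.

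The mutants were then compared with each other on the recovered reads, in a single edgeR quasi-likelihood fit of all 8 libraries. In the libraries labelled chr11/17, 30 of 49 tested members were higher and 10 lower than in arid5, where 65.2% of all 21288 genes were called, 32.2% higher and 33% lower. Against the libraries labelled rlt1/2, 28 members were higher and 10 lower in those labelled chr11/17, with 64.8% of all genes called, 32.2% higher and 32.6% lower. WRKY28 and WRKY8 had the smallest adjusted p values in both. WRKY28 was higher in the libraries labelled chr11/17 by 4.99 ± 0.14 than in arid5 (edgeR adjusted p = 2.49e-09) and by 5.26 ± 0.14 than in the libraries labelled rlt1/2 (edgeR adjusted p = 2.36e-09). WRKY8 was higher by 5.64 ± 0.18 and 4.94 ± 0.16 in the same comparisons. WRKY54 was lower in the libraries labelled chr11/17 than in arid5 (-3.58 ± 0.44) and than in the libraries labelled rlt1/2 (-4.41 ± 0.40), and without chr11/17 replicate 2 these values were -4.34 and -5.18.

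Between the libraries labelled rlt1/2 and arid5, 0 of 49 members were called with edgeR, where 0.366% of all genes were called, 0.324% higher and 0.0423% lower. At an unadjusted p under 0.05 there were 16 members, all higher in the libraries labelled rlt1/2, beside 7.93% of all genes in either direction and 4.89% higher, and DESeq2 called 2, WRKY33 and WRKY40. WRKY33 was 0.58 ± 0.12 higher in the libraries labelled rlt1/2 than in arid5 (edgeR adjusted p = 0.0937) and WRKY40 was 0.97 ± 0.20 higher (edgeR adjusted p = 0.10). Members called against WT in only 1 of these 2 mutants, such as WRKY40, WRKY75 and WRKY54, are therefore not shown by edgeR to differ between them.

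**Figure D4:**
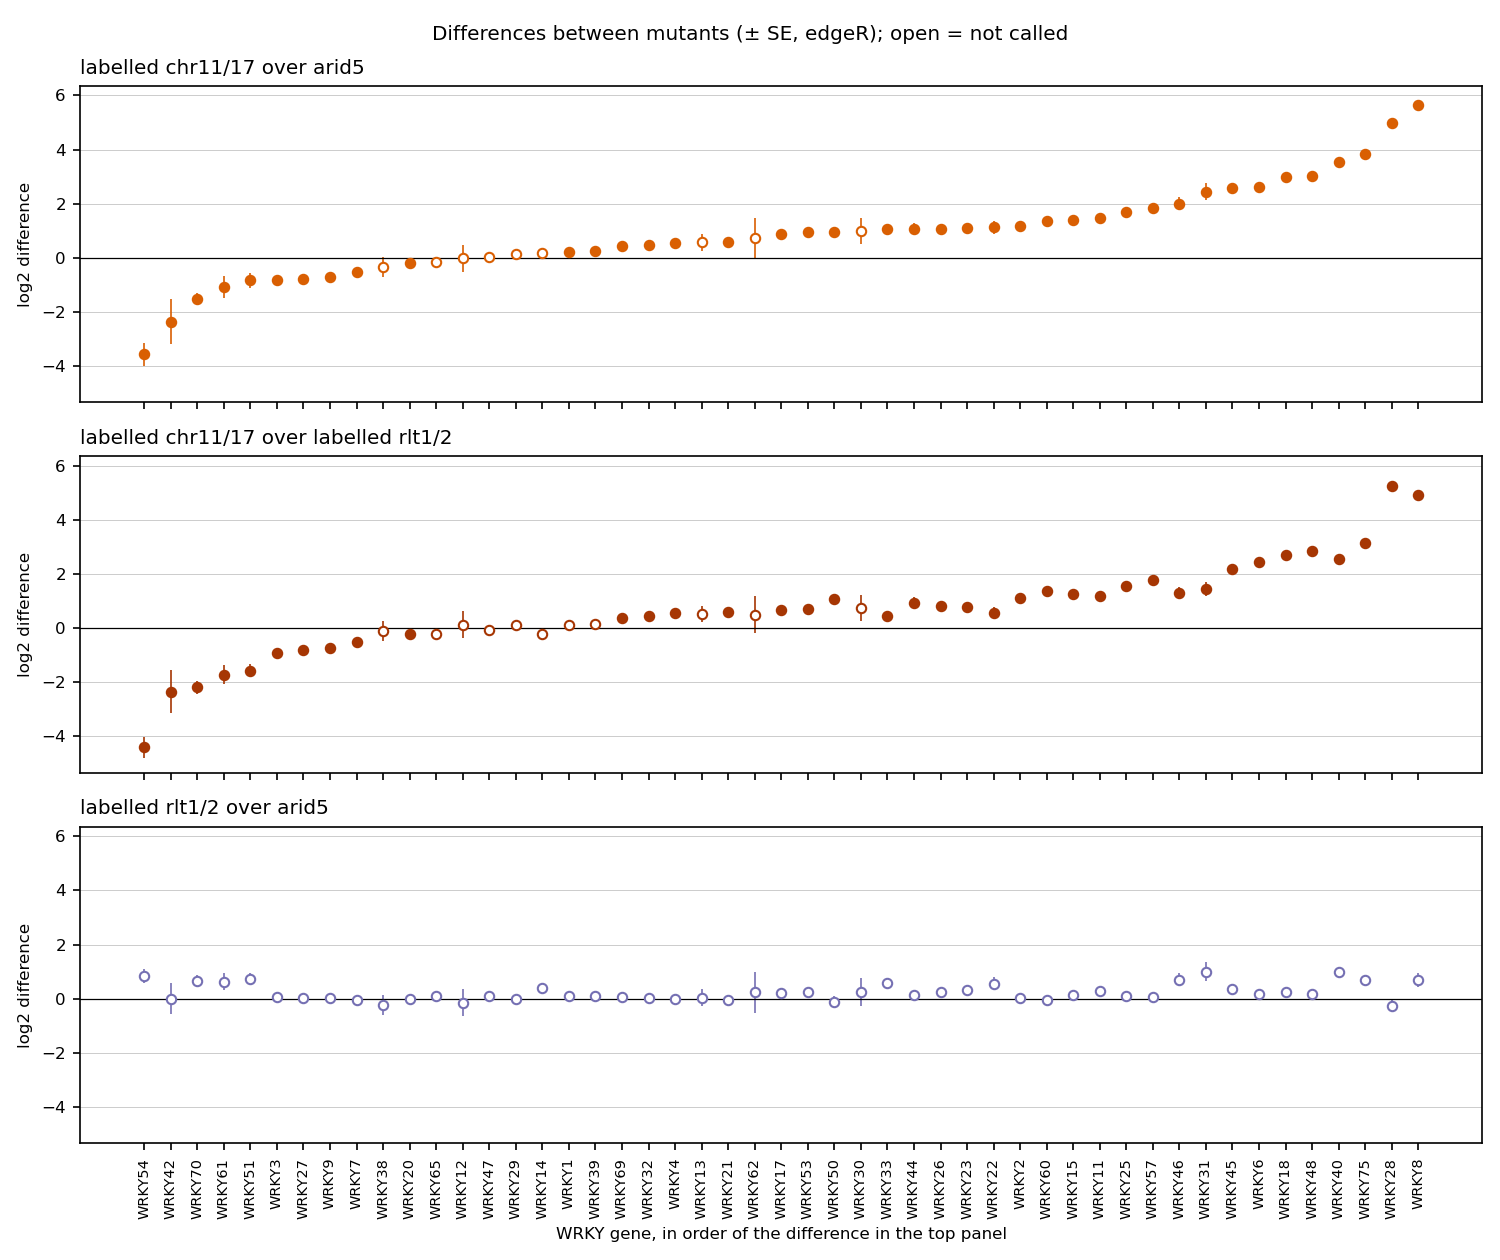
Log2 difference (± SE, edgeR, 2 libraries per group) of 49 WRKY genes for the libraries labelled chr11/17 over arid5 (top), labelled chr11/17 over labelled rlt1/2 (middle) and labelled rlt1/2 over arid5 (bottom), with genes in the order of the top panel. Filled points were called; the top and middle panels run from WRKY54 far below 0 to WRKY8 and WRKY28 far above it, and the bottom panel has no filled point.

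Closely related members were compared in sets. WRKY54 and WRKY70 both fell in the libraries labelled chr11/17, with log2 changes of -1.96 ± 0.22 and -1.89 ± 0.12 on the log2(value + 10) scale, which understates the change of the lower gene. Per length, WRKY54 averaged 0.098 RPKM there against 1.21 in WT, and WRKY70 averaged 3.59 against 13.8, so the fold was larger for WRKY54, which passed the filter only through WT. WRKY45 and WRKY75 both rose there, by 3.51 ± 0.12 and 3.90 ± 0.14. WRKY6 and WRKY42 went in opposite directions in those libraries, 3.10 ± 0.10 against -1.44 ± 0.23. WRKY42 also passed the filter there only through WT, so its value is a description. WRKY50 and WRKY51, which act in the repression of jasmonate signalling by salicylic acid, were called in different mutants, WRKY50 in the libraries labelled chr11/17 (1.81-fold) and WRKY51 in arid5 and in the libraries labelled rlt1/2. The call of WRKY51 in arid5 was lost without WT replicate 1 (0.72) or arid5 replicate 1 (0.64). Differences between members of a pair were not tested.

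**Figure D5:**
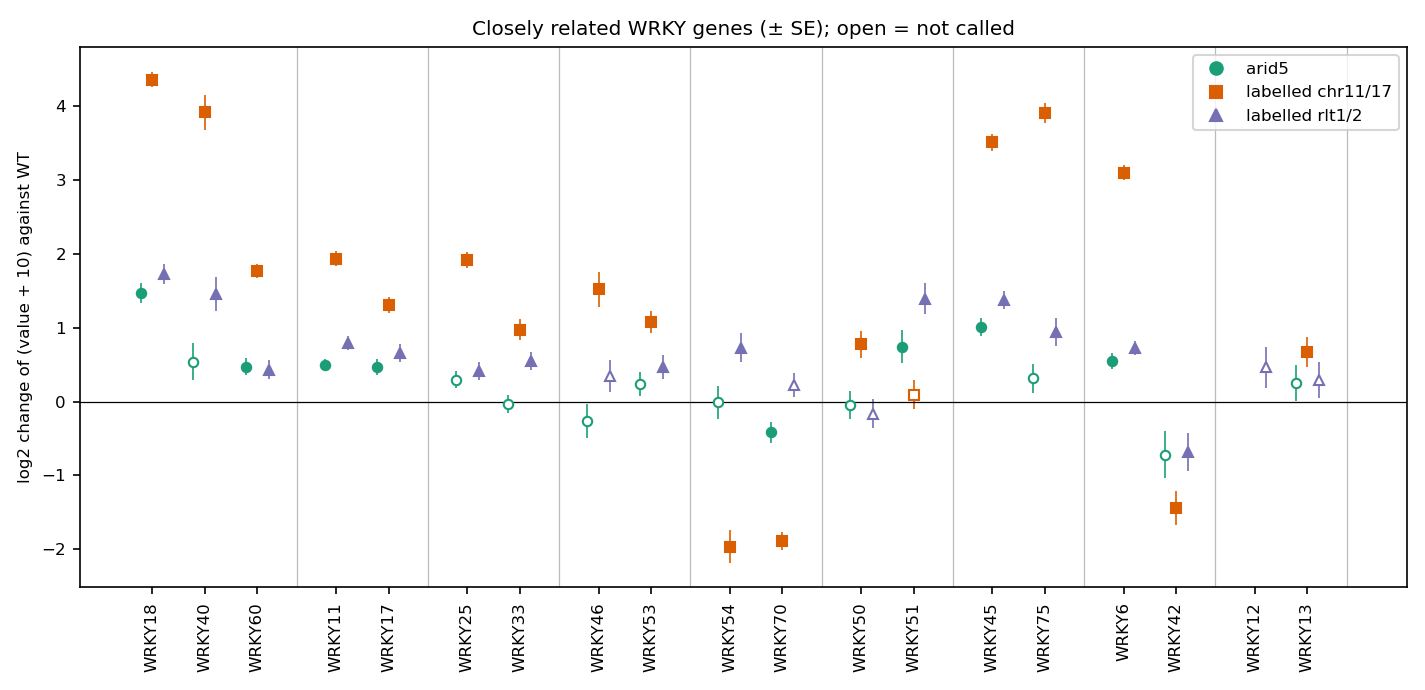
Log2 change of (value + 10), mutant over WT with its SE, of sets of closely related WRKY genes in arid5 (circles), the libraries labelled chr11/17 (squares) and those labelled rlt1/2 (triangles); open points were not called. WRKY18, WRKY40, WRKY45, WRKY75 and WRKY6 have squares above 3, and WRKY54, WRKY70 and WRKY42 have squares below -1. The squares of WRKY54 and WRKY42 belong to genes that passed the filter there only through WT.

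Lists of genes that act with WRKY factors were described in the same fits, in which 47.9% of all genes were called in arid5, 71.8% in the libraries labelled chr11/17 and 47.9% in those labelled rlt1/2. The 14 immune receptor and MAP kinase genes gave 5 rises and 3 falls in arid5, 7 rises and 2 falls in the libraries labelled chr11/17, and 4 rises and 1 fall in those labelled rlt1/2. In the libraries labelled chr11/17 these were 50% and 14.3% of the list, beside 35.9% and 36% of all genes, and in those labelled rlt1/2 they were 28.6% and 7.14%, beside 23.8% and 24%. In arid5 they were 35.7% and 21.4%, beside 23.3% and 24.6%. EFR, the receptor of bacterial elongation factor Tu, had normalised values of 1139 and 948 in the libraries labelled chr11/17 against 141 and 152 in WT. BIK1, a kinase that acts below such receptors, had 2325 and 2109 in the libraries labelled chr11/17 against 399 and 413 in WT. Both also rose in the other mutants, by 1.80-fold to 2.22-fold, whereas MKK5, a kinase above the MAP kinases that phosphorylate WRKY33, was 3.11-fold lower in arid5 and 3.28-fold lower in the libraries labelled rlt1/2. VQ proteins bind WRKY factors, and of the 7 tested there were 4 rises and 1 fall (57.1% and 14.3%) in the libraries labelled chr11/17, led by JAV1, a repressor of jasmonate defence (5.20-fold), while SIB1, a partner of WRKY33, was 3.62-fold lower. In arid5 limma called 0 of the 7 VQ genes, with 0 at an unadjusted p under 0.05 and 0 by edgeR or DESeq2, and MKS1, which holds WRKY33 in a complex with a MAP kinase, had 106 and 108 there against 89.4 and 73.1 in WT. JAV1 was the 1 VQ gene called in the libraries labelled rlt1/2 (1.46-fold).

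Known targets of WRKY factors moved in both directions. Of 15 tested in the libraries labelled chr11/17, 8 rose and 6 fell (53.3% and 40%, beside 35.9% and 36% of all genes). PAD3, the camalexin synthesis gene bound by WRKY33, had 636 and 776 there against 116 and 89.6 in WT and also rose in arid5 (1.96-fold) and in the libraries labelled rlt1/2 (2.30-fold). PHO1, repressed by WRKY6 and WRKY42, had 604 and 699 in the libraries labelled chr11/17 against 2082 and 2470 in WT. ABI5, an abscisic acid regulator and a target of WRKY40, had 171 and 173 against 14.7 and 12.5 in WT, and GL2, a trichome regulator downstream of WRKY44, was 4.83-fold lower. In arid5 4 targets rose and 4 fell of 12 (33.3% and 33.3%, beside 23.3% and 24.6% of all genes). In the libraries labelled rlt1/2 4 rose and 3 fell of 12 (33.3% and 25%, beside 23.8% and 24%).

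The salicylic acid list was divided, with 6 of 12 higher and 5 lower in the libraries labelled chr11/17 (50% and 41.7%, beside 35.9% and 36% of all genes). EDS5, a transporter needed for salicylic acid synthesis, had 838 and 905 there against 172 and 174 in WT, while ICS1, the main enzyme of that synthesis, had 203 and 230 against 611 and 594. PR1, a marker of salicylic acid responses, had 50.6 and 23.2 in arid5 against 821 and 82.5 in WT, so the WT libraries themselves lie far apart. All 8 jasmonate genes rose in the libraries labelled chr11/17 (100%, beside 35.9% of all genes), with LOX3, a jasmonate synthesis enzyme, at 22177 and 19844 against 250 and 247 in WT. Of the same 8, 4 rose and 2 fell in arid5 (50% and 25%, beside 23.3% and 24.6%). In the libraries labelled rlt1/2 5 rose and 1 fell (62.5% and 12.5%, beside 23.8% and 24%).

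Other gene lists were described beside the WRKY levels. The rapid wound and touch response list, 11 genes, had 10 higher in the libraries labelled chr11/17, 11 in those labelled rlt1/2 and 5 in arid5. In that order these were 90.9%, 100% and 45.5%, beside 35.9%, 23.8% and 23.3% of all genes. The summed level of this list was 460 and 423 RPM in the libraries labelled chr11/17, 127 and 153 in arid5 and 201 and 239 in the libraries labelled rlt1/2, against 87.2 and 114 in WT. The senescence list of 6 genes had 4 rises and 2 falls in the libraries labelled chr11/17 (66.7% and 33.3%, beside 35.9% and 36% of all genes). It summed to 2598 and 2335 in the libraries labelled chr11/17, 97.2 and 93.3 in arid5 and 232 and 154 in the libraries labelled rlt1/2, against 169 and 157 in WT. The log2 changes of the 6 in the libraries labelled chr11/17 ran from -1.29 to 7.95, with a median of 1.29. The share of single genes in that sum was not counted. In arid5 4 of the 5 tested senescence genes fell (80%, beside 24.6% of all genes). In the libraries labelled rlt1/2 1 of 5 rose and 2 fell (20% and 40%, beside 23.8% and 24%). SAG13, a senescence-associated gene, was 251-fold higher in the libraries labelled chr11/17, and SEN1, induced in darkness, was lower in every mutant. All 10 photosynthesis markers fell in every mutant, with sums of 9682 and 14413 in the libraries labelled chr11/17, 33948 and 37650 in arid5 and 36856 and 30025 in the libraries labelled rlt1/2, against 71465 and 68939 in WT. Root markers, 16 genes, summed to 3725 and 3424 in the libraries labelled chr11/17, 2749 and 2360 in arid5 and 2379 and 3055 in the libraries labelled rlt1/2, against 1222 and 1283 in WT. Most of that sum was PYK10, a glucosidase of endoplasmic reticulum bodies. Without PYK10 the sum was 101 and 105 in the libraries labelled chr11/17, 129 and 126 in arid5 and 149 and 157 in the libraries labelled rlt1/2, against 105 and 106 in WT. The median log2 change of the 16 was -0.08 in the libraries labelled chr11/17, 0.32 in arid5 and 0.41 in those labelled rlt1/2, with 7, 8 and 8 higher and 3, 1 and 1 lower in the same order. The higher shares were 43.8%, 50% and 50%, beside 35.9%, 23.3% and 23.8% of all genes. The lower shares were 18.8%, 6.25% and 6.25%, beside 36%, 24.6% and 24%. No root or photosynthesis marker was at 0 in any library. The part of these lists and markers in the WRKY results was not tested.

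By likeness over the 8 libraries, the members closest to WRKY40 in log2 level were WRKY25 (Pearson r = 0.983), WRKY75 (0.980) and WRKY53 (0.980), and those closest to WRKY70 were WRKY20 (0.932), WRKY54 (0.932) and WRKY27 (0.848). These values describe 8 libraries that fall into 4 genotype groups, and they say nothing about the genes' function. Of the 16 WRKY loci outside the list that were in a table, 14 were tested in arid5, with 4 higher and 10 not called, 14 in the libraries labelled chr11/17, with 3 higher and 3 lower, and 15 in the libraries labelled rlt1/2, with 7 higher and 8 not called. Their shares in the libraries labelled chr11/17 were 21.4% higher and 21.4% lower, beside 35.9% and 36% of all genes. The shares higher were 28.6% in arid5, beside 23.3%, and 46.7% in the libraries labelled rlt1/2, beside 23.8%. Some of these rises belong to genes that passed the filter only through the mutant libraries, which had to be high there, namely WRKY58 in all 3 mutants, WRKY59 in arid5 and in the libraries labelled rlt1/2, and WRKY43 in those labelled rlt1/2, all named after their values were seen.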

How the data were processed

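The submitters' processing notes name HISAT2, edgeR and the TAIR10 build. The sources used here do not give tool versions, the read counter, the annotation or the use of strand. The authors deposited 3 tables of normalised signal per gene, each with the 2 WT libraries and 2 libraries of 1 mutant, which were normalized separately and hold 23022, 23427 and 23248 genes (arid5, chr11/17, rlt1/2). The values are those of edgeR's adjustment of whole reads to a common library size. Inverting it gave whole reads for 100.0% of values (relative tolerance 1e-10), and WT reads were identical across tables. Levels in RPKM (on merged exon lengths of RefSeq TAIR10.1) and RPM use these reads with TMM.

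Main tests were limma 3.58.1 (R 4.3.3) on log2(value + 10) for genes that reached 10 in 2 or more libraries, and, between mutants, edgeR 4.0.16; DESeq2 1.42.0 was an alternative. The tests and the inversion were also run on simulated tables, with a single fixed spread for all genes. Low genes were not among those changed in them, and the outcome is not given here. The planned design allowed for either kind of unit; these values are normalised, and count tests on recovered reads were an alternative. The members and the 10 gene lists (109 entries) were chosen with earlier results of these data known. WRKY45 was placed in IIc; some sources class it in group I. Reads of close relatives may be shared, and reads of antisense genes were not told apart.

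Genes were named by rule: per mutant the 6 largest rises and falls among called members with a higher mean of at least 50 and no overlap; the 4 highest; those called in all 3 mutants or in opposite directions; the 2 smallest adjusted p per contrast; close relatives; and up to 4 called genes of each other list. Other members are named to account for the list.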

Additional observations from a re-analysis of the deposited data

Results flagged for a closer look

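Some of these members were singled out because they were called in opposite directions against WT (WRKY2, WRKY8, WRKY23 and WRKY54). Others had the smallest adjusted p in edgeR's test between mutants on all 8 libraries (WRKY28 and WRKY8). In both cases the same mutant libraries chose the members, so all values below are a description and not independent evidence. WRKY33 and WRKY40, with the smallest adjusted p between the libraries labelled rlt1/2 and arid5, were not called there (edgeR adjusted p = 0.0937 and 0.10). WRKY28 was higher in the libraries labelled chr11/17 than in arid5 by 4.99 and than in the libraries labelled rlt1/2 by 5.26 on the log2 scale. WRKY8 was higher by 5.64 and 4.94, WRKY2 by 1.16 and 1.13, and WRKY23 by 1.08 and 0.77 in the same 2 comparisons. WRKY54 was lower, with differences of -3.58 and -4.41. It was close to the floor in the libraries labelled chr11/17, with a mean of 0.141 RPM. Without chr11/17 replicate 2 its differences were -4.34 and -5.18. With all 8 libraries, the edgeR adjusted p values of the differences of these members ranged from 2.36e-09 for WRKY28 to 0.000212 for WRKY23. In each, both libraries labelled chr11/17 lay on 1 side of both libraries of the other mutant. Small p values and separated libraries largely follow from the choice of members, and the share of all genes with separated libraries was not counted.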

How the results depend on the processing

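Of the members called against WT, 19 of 24 in arid5, 33 of 41 in the libraries labelled chr11/17 and 22 of 32 in those labelled rlt1/2 were called in the same direction under every alternative that tested them. Between mutants this held for 33 of 40 (labelled chr11/17 against arid5) and 33 of 38 (labelled chr11/17 against labelled rlt1/2). With equal library totals, 29 members rose in arid5 and 3 fell in the libraries labelled rlt1/2, and WRKY1 (0.17 in arid5, 0.27 in the libraries labelled rlt1/2) and WRKY15 (0.25 in arid5), not called otherwise, were called higher; this scaling moved the median of all genes. DESeq2 gave fewer calls against WT, with 15 rises and 5 falls in arid5 (18 and 6 with limma). It gave 30 and 5 in the libraries labelled chr11/17 (34 and 7 with limma), and 19 and 3 in those labelled rlt1/2 (27 and 5 with limma). Between the libraries labelled rlt1/2 and arid5 it gave 2 rises, with no adjusted p for 14 members, and the cause was not tested. Leaving out 1 library gave 3 to 7 falls in the libraries labelled chr11/17 and 3 to 4 in those labelled rlt1/2. In arid5 the counts were 15 to 19 rises and 5 to 6 falls. The labels do not say whether same-numbered libraries were prepared together. Same-numbered deviations from the group means correlated at -0.0025 (arid5), 0.014 (labelled chr11/17) and 0.16 (labelled rlt1/2). With a replicate block there were 19 rises and 7 falls in arid5, 35 and 6 in the libraries labelled chr11/17, 28 and 5 in those labelled rlt1/2, and 0 between the last and arid5. Over all genes in the libraries labelled rlt1/2, the block gave 5680 higher and 5684 lower, against 4944 and 4982 without it. It gave 4832 and 5083 in arid5 (4784 and 5062 without it), and 7387 and 7446 in the libraries labelled chr11/17 (7485 and 7507 without it). With 2 libraries per group, leaving 1 out leaves a lone library that is assumed to vary like the others.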
